A study of Sus scrofa with 12 samples.

Results

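The genes described here encode enzymes that make, interconvert or inactivate estrogens and glucocorticoids within a tissue: HSD11B1, HSD11B2, HSD17B1, HSD17B2, HSD17B4, HSD17B8, HSD17B12, SULT1E1, STS and CYP11A1. They were chosen by name, with earlier results of these data known, and all 10 were found among the 20674 genes of the expression table. STS occurred in 2 rows, a copy on chromosome X and a copy on chromosome Y, so the 10 genes gave 11 rows. Of these, 9 rows from 8 genes passed the filter on low counts and were tested together with the other genes, 15351 in all. HSD17B2 and SULT1E1 did not pass and are given by their counts.

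Endometrium, the inner lining of the uterus, was taken from Landrace × Yorkshire sows in the second or the third parity. The trial diets had been fed for 114 days, from breeding through gestation. The sources used here do not state that each of the 12 libraries came from a different sow. The study asked how dietary fiber (DF) and N-carbamylglutamate (NCG), a compound that raises the body's own arginine synthesis, act on the uterus. The basal control diet, L − N, held 3.73% crude fiber and the diet H − N held 7.46%, and L + N and H + N held 0.05% NCG in place of as much zeolite powder, with 3 libraries for each of the 4 groups. The high-fiber (HF) and low-fiber (LF) diets differed in ingredients as well as in fiber, since soybean bran and beet pulp stood in for some of the corn in the former. Each library held between 14369781 and 19309724 counted reads, and levels are given as CPM, counts scaled to the effective size of each library. The labels name separate samples, and p-values measure the spread between these 12 libraries.

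Steroid hormones reach the endometrium through the blood, and local enzymes set how much active hormone a cell sees. Members of the 17-beta-hydroxysteroid dehydrogenase family convert estrone to the more potent estradiol or back, SULT1E1 attaches sulfate to estrogens and so inactivates them, and steroid sulfatase (STS) removes it. In a parallel switch for glucocorticoids, HSD11B1 regenerates active cortisol from cortisone, and HSD11B2 converts cortisol to inactive cortisone.

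The libraries carried transcripts of the cell types expected of endometrium. Summed over 9 epithelial markers, the level in FPKM, which scales fragments to gene length and library size, was 708, 732 and 458 in L − N, 758, 776 and 774 in L + N, 932, 738 and 1022 in H − N and 598, 672 and 574 in H + N, with KRT8 the most abundant at a mean of 197 FPKM. Summed over 8 stromal markers it was 8375, 6643 and 6162 in L − N, 7067, 9139 and 10596 in L + N, 7633, 8699 and 11056 in H − N and 10021, 8062 and 10919.8 in H + N, led by COL3A1 at 3526 FPKM. None of the genes of these lists was at 0 in all libraries. The sums follow the most abundant genes chosen, so they do not compare the amounts of the cell types. Among the trophoblast markers, CYP19A1, CYP19A2 and PAG6 had no read in any library, and CYP19A3 had 1, 5 and 2 reads in L − N and none elsewhere. The summed level of the 14 trophoblast markers in the table was 20.9, 17.3 and 17.3 in L − N, 27.9, 28.0 and 34.6 in L + N, 38.9, 33.7 and 24.2 in H − N and 34.6, 28.7 and 29.4 in H + N FPKM, with GATA2, a gene that endometrium also expresses, the most abundant at 21.2 FPKM.

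The L − N libraries differed among themselves in their cell type markers. Summed over 6 smooth muscle markers, the level was 2759, 860.1 and 953 in L − N, 552, 603 and 488 in L + N, 395, 740.0 and 788 in H − N and 714, 701 and 721 in H + N FPKM, led by ACTA2 at a mean of 390.4 FPKM. Summed over 10 leukocyte markers it was 518, 1329.9 and 1316 in L − N, 801, 686 and 531 in L + N, 419, 422 and 395 in H − N and 612, 641 and 503 in H + N FPKM, led by C1QB at 284 FPKM. Thus L − N replicate 1 had the highest smooth muscle sum of all libraries, and L − N replicates 2 and 3 had the highest leukocyte sums. The latter were carried by the macrophage genes C1QA, C1QB, CD68, CSF1R and CD163, each highest in these libraries. CD79A, S100A8 and S100A9 did not follow, with CD79A lowest of all in L − N replicate 3 and S100A8 and S100A9 highest in H − N replicate 3 (37.5 and 66.0 FPKM), nor did CD3E, which was highest in L − N replicate 2 but below its mean in L − N replicate 3. PTPRC was highest in L + N replicate 1 (36.85 FPKM), with 36.77 FPKM in L − N replicate 2 and 29.9 FPKM in L − N replicate 3. For 6 endothelial markers the sum was 318, 209 and 253 in L − N, 183, 139.9 and 168 in L + N, 214, 216 and 206 in H − N and 172, 239 and 150.1 in H + N FPKM, led by PECAM1 at 79.3 FPKM. No gene of these 3 lists was at 0 in all libraries. Within groups, the median Pearson correlation of a library with its own group ranged from 0.956 to 0.982 on log2 CPM over the genes tested, and 2 of the 12 libraries were closer to the libraries of other groups than to their own.

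Per length of transcript, the enzymes fell into an abundant and a scarce set. HSD17B4 had the highest mean level over the 12 libraries, 55.8 FPKM (range 46.6 to 64.6), followed by HSD11B1 at 51.6 FPKM (28.0 to 143). HSD17B12 followed at 32.6 FPKM (27.3 to 42.1), and then HSD17B8 at 20.9 FPKM (13.3 to 29.0). HSD17B4 and HSD17B12 did not overlap, whereas the range of HSD11B1 overlapped both and the ranges of HSD17B12 and HSD17B8 met. Below them stood HSD11B2 at 5.34 FPKM (1.19 to 9.84), HSD17B1 at 1.996 FPKM (1.10 to 2.90) and CYP11A1 at 1.51 FPKM (0.438 to 3.65). HSD11B2 lay below HSD17B8 in every library, and the ranges of HSD11B2, HSD17B1 and CYP11A1 overlapped. The scarcest were SULT1E1 at 0.209 FPKM (0.0273 to 0.846), HSD17B2 at 0.185 FPKM (0 to 0.509) and the X and Y copies of STS at 0.188 and 0.155 FPKM. The order of these last 4 rows rests on few reads and does not hold beyond their spread. For STS it also depends on how reads that match both copies were counted.

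**Figure D1:**
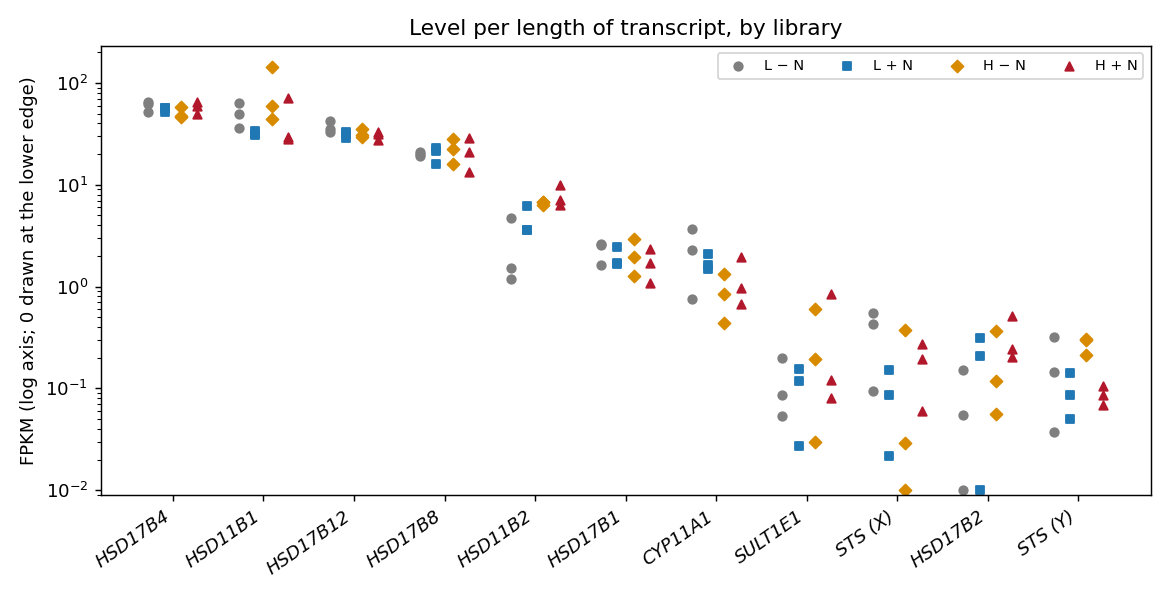
Level of each enzyme gene in FPKM (log axis) in the 12 libraries, with a color and symbol for each diet and genes in the order of their mean; a value of 0 is drawn at the lower edge. HSD17B4 and HSD11B1 have the highest means, 55.8 and 51.6 FPKM, and SULT1E1, STS and HSD17B2 lie below 1 FPKM in every library.

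HSD11B2, which inactivates cortisol, lies on chromosome 6, 28084087 to 28089256 (gene ID 396948) of the build Sscrofa11.1, and no other gene of the table overlaps it. Its level in CPM was 2.101, 1.76 and 6.99 in L − N, 4.71, 4.83 and 8.17 in L + N, 8.34, 9.43 and 10.001 in H − N and 8.83, 9.45 and 14.2 in H + N. The HF libraries were all above the LF libraries, with the lowest at 8.34 CPM against 8.17 CPM in the highest LF library. The share of all genes that separated in this way was not counted. Between H − N and H + N the values overlapped, as they did between L − N and L + N, where L − N replicate 3 stood close to the L + N libraries. On the LF diet the mean was 3.61 ± 2.92 CPM without and 5.90 ± 1.97 CPM with NCG, and on the HF diet it was 9.26 ± 0.843 CPM without and 10.8 ± 2.95 CPM with it (± SD of 3 libraries). A difference was called at an adjusted p under 0.05 and an absolute log2 fold change above 1. The log2 fold change was 1.59 ± 0.47 (SE) for H + N against L − N and 1.36 ± 0.47 for H − N against L − N. Neither passed in edgeR after adjustment over all genes tested (adjusted p = 0.0597 and 0.109). For high against low fiber over both NCG levels the log2 fold change was 1.12 ± 0.33 (adjusted p = 0.115 in edgeR). Without L − N replicate 3 the log2 fold change was 2.49 for H + N and 2.26 for H − N (adjusted p = 0.0719 and 0.0658 in edgeR), and over all libraries left out in turn it ran from 1.25 to 2.49 and from 1.03 to 2.26. DESeq2 called all 3 differences, with adjusted p = 0.0103, 0.0389 and 0.0205 in that order. With the replicate number as a block, edgeR also called H + N and H − N against L − N (adjusted p = 0.0324 and 0.0496, where all alternatives gave 0.0103 to 0.158 and 0.0389 to 0.259), so the call depended on the tool and on the model. In bulk tissue, fewer cells of a type and less RNA per cell cannot be told apart, here as for every gene below.

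HSD11B1, which regenerates cortisol, lies on chromosome 9, 133231451 to 133278396 (gene ID 397480). C9H1orf74 overlaps it on the opposite strand, with 218 to 368 reads per library. The strand used in counting is not given in the sources used here. Reads from the overlap may therefore have been left uncounted or given to the wrong gene. The level of HSD11B1 in CPM was 117, 70.3 and 96.1 in L − N, 57.5, 55.3 and 54.5 in L + N, 104, 80.5 and 277 in H − N and 51.3, 51.7 and 136 in H + N. H − N replicate 3 was the highest library and H + N replicate 3 the next. The L + N libraries lay close together and below every library without NCG, while the H + N libraries overlapped those of H − N and of L − N. The log2 fold change with against without NCG was -0.86 ± 0.33 (SE) and did not pass in edgeR (adjusted p = 0.145). Without H + N replicate 3 it was -1.17 and was called (adjusted p = 0.0436 in edgeR). Without H − N replicate 3 it was -0.49 (adjusted p = 0.285 in edgeR). For L + N against L − N it was -0.76 ± 0.47 and for H + N against H − N -0.95 ± 0.47, with adjusted p = 0.317 and 0.593 in edgeR.

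The ratio of HSD11B2 to HSD11B1 on the FPKM scale describes the balance of the 2 transcripts in each library. It was 0.0237, 0.0330 and 0.0960 in L − N, 0.108, 0.116 and 0.198 in L + N, 0.106, 0.155 and 0.0477 in H − N and 0.228, 0.242 and 0.139 in H + N. HSD11B1 transcripts exceeded HSD11B2 transcripts in every library. The ratio was lowest in L − N replicates 1 and 2 and H − N replicate 3 and highest in H + N replicates 2 and 1, and L − N lay below L + N and H + N while the other pairs of groups overlapped. No test was made on this ratio.

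**Figure D2:**
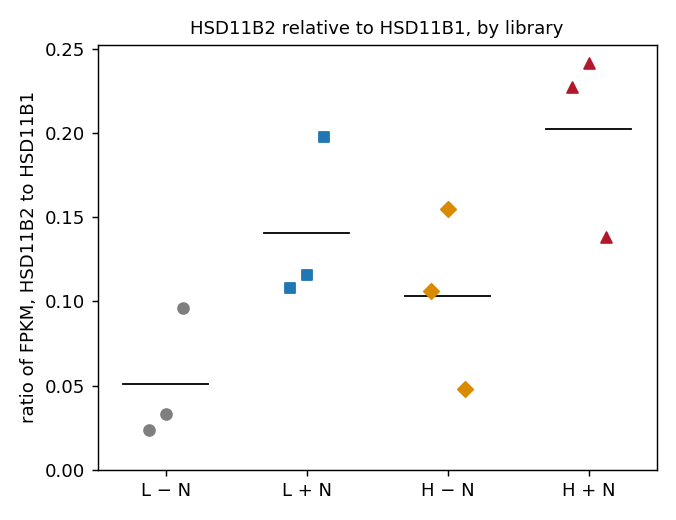
Ratio of HSD11B2 to HSD11B1 in FPKM in each library, by diet, with the group mean as a bar. Values range from 0.0237 in L − N replicate 1 to 0.242 in H + N replicate 2.

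H6PD supplies the cofactor that lets HSD11B1 work toward cortisol, and its level of 74.4 to 118 CPM gave no call by edgeR. NR3C1, the glucocorticoid receptor, stood at 81.5 to 128 CPM and NR3C2, the mineralocorticoid receptor that HSD11B2 shields from cortisol, at 9.84 to 26.4 CPM, with no call by edgeR for either. Of the 5 genes of glucocorticoid synthesis and cofactor supply found in the table, 3 were tested. Neither edgeR nor DESeq2 called any of them, at most 1 of 3 had an unadjusted p under 0.05 (H + N against H − N and the interaction, against 8.67% and 12.8% of all genes), and G6PC3 was the most abundant at a mean of 15.7 FPKM. CYP21A2, needed for cortisol synthesis, had at most 1 read in a library.

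Genes that glucocorticoids are known to induce were measured as a list of 12, all tested. This list was chosen with earlier results of these data known, so its shares against all genes are a description. GADD45A, a DNA damage response gene and the most abundant of the list at a mean of 136 FPKM, stood in CPM at 265, 432 and 528 in L − N, 144, 109 and 148 in L + N, 115, 111 and 228 in H − N and 97.1, 120.0 and 114 in H + N. KLF9, a transcription factor, stood at 20.1, 32.9 and 33.7 in L − N, 14.2, 14.3 and 13.5 in L + N, 13.2, 13.7 and 10.7 in H − N and 11.997, 15.5 and 9.69 in H + N. TSC22D3, which encodes the glucocorticoid-induced leucine zipper, stood at 122, 125 and 137 in L − N, 70.6, 80.0 and 72.4 in L + N, 78.4, 75.6 and 71.4 in H − N and 67.0, 68.6 and 40.2 in H + N. For each of these 3 genes, the L − N libraries were above all 9 others. How many of all genes separated L − N from all others was not counted. Against single groups, L − N did not overlap H − N, L + N and H + N in 25.4%, 35.3% and 28.0% of all genes.

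GADD45A fell by 1.43 on the log2 scale in H − N, by 1.61 in L + N and by 1.89 in H + N against L − N (SE 0.30, 0.31 and 0.31, with adjusted p = 0.0294, 0.0126 and 0.0156 in edgeR). KLF9 fell by 1.21, 1.04 and 1.22 in the same order (SE 0.23 in each, adjusted p = 0.0233, 0.0194 and 0.0182 in edgeR). TSC22D3 was called only in H + N, where it fell by 1.13 on the log2 scale (SE 0.17, adjusted p = 0.0136 in edgeR). These comparisons share the L − N libraries. In all, 2 of the 12 genes were called lower in H − N, 2 in L + N and 3 in H + N, and none was called higher. Of all genes, edgeR called 2.91%, 3.99% and 3.58%. At an adjusted p under 0.05 alone, FKBP5 and DDIT4 joined the genes called, and 5 of the 12 were lower in each comparison with L − N. Of all genes, 5.27%, 9.60% and 7.97% passed in H − N, L + N and H + N. The median log2 fold change of the list was -0.46, -0.79 and -0.85 in that order, against 0.03, -0.02 and 0.02 over all genes tested. It was negative for 8 of the 12 genes in H − N, for 12 in L + N and for 8 in H + N, called or not. In H + N the means of SGK1, DUSP1, CRISPLD2 and ERRFI1 were higher, at 133, 110, 642 and 40.1 CPM. In L − N they were 106, 97.0, 406 and 33.8 CPM. For each of these genes, replicate 3 was the highest H + N library. With against without NCG, 1 of the 12 was called where 1.80% of all genes were, and 5 of the 12 (GADD45A, FKBP5, DDIT4, PER1 and TSC22D3) were lower at an adjusted p under 0.05 alone, against 7.27% of all genes. The called gene, GADD45A, fell by 1.03 on the log2 scale (SE 0.21, adjusted p = 0.0169 in edgeR). Among the 4 groups at once, 5 of the 12 (GADD45A, KLF9, TSC22D3, FKBP5 and DDIT4) had an adjusted p under 0.05 in edgeR, against 6.96% of all genes. DESeq2 called 2 of the 12 in H − N, 2 in L + N and 4 in H + N against L − N, where it added DDIT4. Of all genes, it called 5.95%, 5.75% and 6.44%. It called 1 of the 12, GADD45A, with against without NCG (2.31% of all genes). Among the 4 groups it called 6 of the 12, with PER1 added (21.9% of all genes).

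Each of these calls between diets was lost without single libraries. For H + N against L − N, the GADD45A call was lost without L − N replicate 3 or H + N replicate 1 (adjusted p = 0.0731 and 0.0592 in edgeR). The KLF9 and TSC22D3 calls were lost without these and without H + N replicate 3 (KLF9 adjusted p from 0.0518 to 0.0842). Without H + N replicate 3, TSC22D3 kept an adjusted p of 0.0170 in edgeR at a log2 fold change of -0.92. For H − N against L − N, both calls were lost without L − N replicate 2 or 3 or H − N replicate 1 or 2, and KLF9 also without H − N replicate 3 (edgeR adjusted p from 0.0763 to 0.117 for GADD45A and from 0.0507 to 0.0998 for KLF9). For L + N against L − N, GADD45A was lost without L − N replicate 3 or L + N replicate 2 (edgeR adjusted p from 0.0567 to 0.0570), and KLF9 without L − N replicate 2 or 3 or any L + N library (edgeR adjusted p from 0.0557 to 0.0870). With against without NCG, GADD45A fell below the fold limit without replicate 3 of L − N or of H − N, without replicate 2 of L + N or without replicate 1 of H + N (log2 fold change -0.99 to -0.82). The replicate number as a block also ended this call (log2 fold change -0.97). With only the libraries of the groups compared, edgeR lost the calls of GADD45A and KLF9 in H − N (adjusted p = 0.120 and 0.0987) and of KLF9 and TSC22D3 in H + N (adjusted p = 0.0777 and 0.0664). The smooth muscle sums of the L − N libraries were above those of all others and the leukocyte sums, carried by macrophage genes, were highest in 2 of them, and the part of these cell types in the results was not tested.

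**Figure D3:**
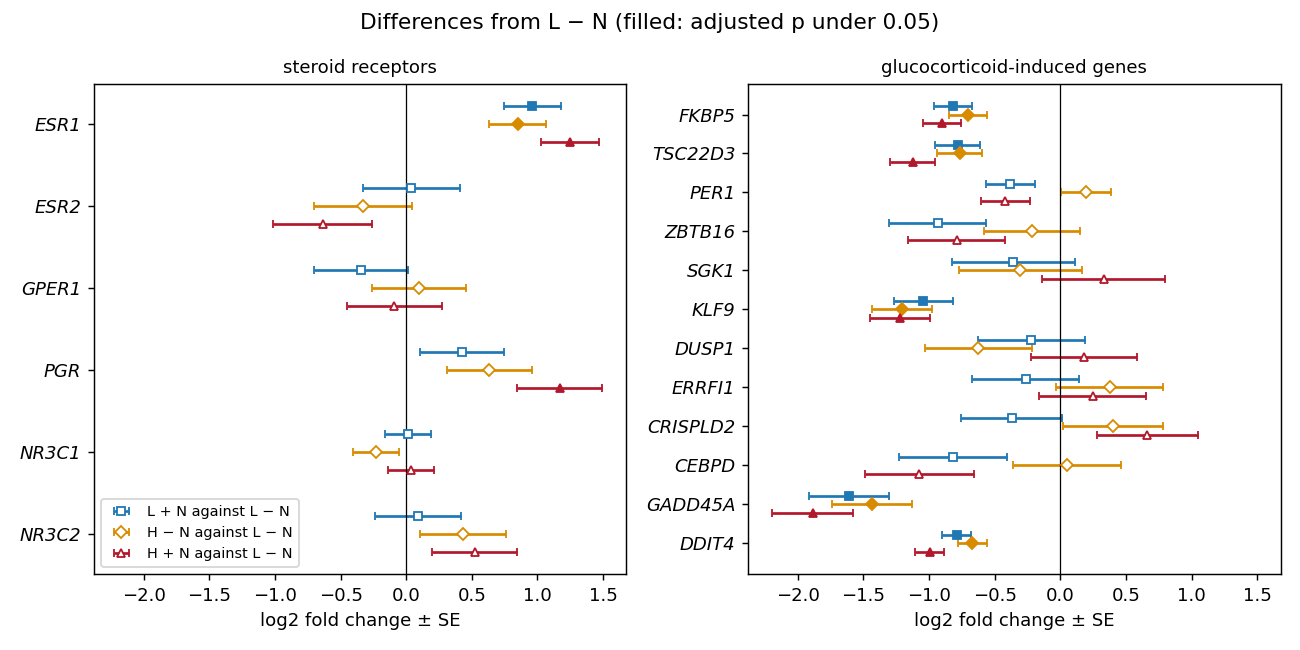
Log2 fold change ± SE against L − N of 6 steroid receptor genes and 12 genes known to be induced by glucocorticoids, with a color and symbol for each diet compared; filled symbols have an adjusted p under 0.05 in edgeR. GADD45A lies at -1.89 and ESR1 at 1.25 in H + N; the comparisons share the L − N libraries.

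CYP11A1, which cleaves the side chain of cholesterol in the opening step of steroid synthesis, lies on chromosome 7, 59172829 to 59188479 (gene ID 403329). Its level in CPM was 2.93, 9.22 and 14.8 in L − N, 5.29, 7.69 and 6.02 in L + N, 3.11, 1.66 and 5.31 in H − N and 2.57, 7.17 and 3.86 in H + N. L − N held the highest library, replicate 3, and also a low one, replicate 1, so that every pair of groups with L − N overlapped. The L + N and H − N libraries met closely, at 5.29 and 5.31 CPM. The log2 fold change was -1.41 ± 0.58 (SE) for H − N against L − N and -0.95 ± 0.41 for high against low fiber, and neither passed in edgeR (adjusted p = 0.164 and 0.234). Without L − N replicate 1, the difference between H − N and L − N was -1.83 and was called (adjusted p = 0.0362 in edgeR). Without L − N replicate 3 it was -0.85 (adjusted p = 0.506 in edgeR). L − N replicate 1 is the library with the high smooth muscle sum, and the part of that in the result was not tested.

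The partners of CYP11A1 that carry cholesterol or electrons to it were STAR, STARD3, TSPO, FDX1 and FDXR, all tested. In edgeR none was called, with at most 2 of 5 at an unadjusted p under 0.05 (H + N against L − N, fiber and among the 4 groups, where 27.5%, 19.5% and 27.3% of all genes had one). At an adjusted p under 0.05 alone, 1 of 5, TSPO, was lower in H + N against L − N, by 0.62 on the log2 scale (SE 0.15, adjusted p = 0.0316 in edgeR), where 7.97% of all genes passed. DESeq2 called 1 of 5, TSPO, among the 4 groups, against 21.9% of all genes. TSPO, a protein of the outer mitochondrial membrane, was the most abundant of them at a mean of 32.9 FPKM. STAR, which moves cholesterol into mitochondria, stood at only 0.570 to 1.90 CPM. The median log2 fold change of the 5 genes was -0.28 for H − N, -0.13 for L + N and -0.23 for H + N against L − N. Downstream of CYP11A1, CYP17A1 had 0 to 3 reads per library, HSD3B1 1 to 13, and the aromatase genes CYP19A1 and CYP19A2 none, so that apart from the CYP19A3 reads given above, aromatase transcripts were not detectable at this depth. Of 11 genes of androgen and estrogen synthesis in the table, 6 were tested. In edgeR none was called, with at most 4 of 6 at an unadjusted p under 0.05 (H − N against L − N, where 24.4% of all genes had one). At an adjusted p under 0.05 alone, 1 of 6, CYB5A, was higher in H − N against L − N by 0.47 ± 0.11 (SE, adjusted p = 0.0421 in edgeR), and 1 of 6, HSD3B7, lower in H + N against L − N, by 0.78 (SE 0.18, adjusted p = 0.0308 in edgeR), against 5.27% and 7.97% of all genes. Among the 4 groups DESeq2 called 3 of 6, CYB5A, HSD3B7 and SRD5A1, against 21.9% of all genes. CYB5A, a cytochrome b5 that assists CYP17A1 and other enzymes, was the most abundant at 128 FPKM.

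HSD17B1, which reduces estrone to estradiol, lies on chromosome 12, 20269468 to 20271349 (gene ID 100147712). Its level in CPM was 2.48, 2.70 and 1.68 in L − N, 1.55, 1.57 and 2.29 in L + N, 2.69, 1.87 and 1.31 in H − N and 1.65, 2.17 and 1.10 in H + N. All groups overlapped, and no value rested on more than 52 reads. Its log2 fold changes ran from -0.47 ± 0.38 (SE) for H + N against L − N to -0.13 ± 0.39 for H + N against L + N over the 5 comparisons of 2 groups, with adjusted p of 0.457 or more in edgeR.

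HSD17B12, which acts in fatty acid elongation and can also reduce estrone, lies on chromosome 2, 18461487 to 18611761 (gene ID 100312972). Its level in CPM was 68.1, 90.7 and 75.9 in L − N, 59.7, 64.5 and 56.4 in L + N, 68.5, 62.6 and 62.9 in H − N and 64.5, 53.2 and 70.1 in H + N. The L − N libraries were above all L + N libraries and overlapped those of H − N and H + N. The log2 fold change was -0.38 ± 0.13 (SE) for L + N and -0.32 ± 0.13 for H + N against L − N, small differences that did not pass in edgeR (adjusted p = 0.0981 and 0.148). Without L − N replicate 2 the latter was -0.20 (adjusted p = 0.420 in edgeR).

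HSD17B2, which oxidizes estradiol to estrone, lies on chromosome 6, 6296429 to 6360434 (gene ID 100312973). Its counts were 1, 3 and 0 in L − N, 7, 4 and 0 in L + N, 8, 2 and 1 in H − N and 9, 5 and 4 in H + N. The H + N counts were all above those of L − N, and the other pairs of groups overlapped. In 6 of the 12 libraries it had 3 reads or fewer, and it did not pass the filter on low counts, so it was not tested, and its ratio to HSD17B1 is not given.

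HSD17B4 and HSD17B8 also oxidize estradiol, the former mainly as a peroxisomal enzyme of fatty acid breakdown and the latter as part of mitochondrial fatty acid synthesis. HSD17B4 lies on chromosome 2, 123313445 to 123401386 (gene ID 397574) and HSD17B8 on chromosome 7, 25247577 to 25249786 (gene ID 100154372). The level of HSD17B4 in CPM was 179, 222 and 233 in L − N, 181, 171 and 187 in L + N, 152, 194 and 170.5 in H − N and 203, 162 and 229 in H + N. The level of HSD17B8 in CPM was 21.5, 20.6 and 21.96 in L − N, 20.6, 15.8 and 22.4 in L + N, 21.9, 28.9 and 17.2 in H − N and 21.2, 28.5 and 14.2 in H + N. For both genes every pair of groups overlapped. Over the 5 comparisons of 2 groups, the log2 fold changes of HSD17B4 lay between -0.29 and 0.20 and those of HSD17B8 between -0.12 and 0.12, with SE of 0.15 and of 0.25 to 0.26.

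Of other dehydrogenases of this kind, 14 were in the table in 15 rows, and 13 rows were tested. HSD17B14, which can oxidize estradiol, stood in CPM at 7.77, 30.8 and 25.2 in L − N, 8.88, 7.39 and 7.65 in L + N, 5.34, 6.03 and 4.76 in H − N and 12.9, 8.85 and 7.97 in H + N. L − N replicates 2 and 3, the libraries highest in the macrophage genes, were far above the rest, while L − N replicate 1 lay among the L + N libraries, below those of H + N and above those of H − N. HSD17B14 fell by 1.98 on the log2 scale in H − N (SE 0.41) and by 1.41 in L + N (SE 0.40) against L − N, with adjusted p = 0.0279 and 0.0486 in edgeR. The call in H − N was lost without L − N replicate 2 or 3 or any H − N library (edgeR adjusted p from 0.0611 to 0.107), and that in L + N without any library other than L − N replicate 1 (edgeR adjusted p from 0.0530 to 0.156). With only the libraries of the groups compared both calls were lost (adjusted p = 0.116 and 0.0960 in edgeR), and the L + N call also without the filter (0.0511). The replicate number as a block ended both calls as well (adjusted p = 0.0552 and 0.0902 in edgeR). The part of the leukocyte markers in this result was not tested. HSD17B14 was the only gene of this list that edgeR called, also among the 4 groups. This was 1 of 13 rows each time. Of all genes, edgeR called 2.91% in H − N, 3.99% in L + N and 6.96% among the 4 groups. DESeq2 called HSD17B14 in the same comparisons, for H + N against L − N and for the interaction. It added CBR1 (H − N against L − N, fiber and among the 4 groups) and DHRS9 (fiber). Of all genes, DESeq2 called 5.95% in H − N, 5.75% in L + N and 6.44% in H + N against L − N. It called 1.89% for fiber, 1.20% for the interaction and 21.9% among the 4 groups. HSD17B10 was the most abundant at a mean of 28.6 FPKM.

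SULT1E1, the estrogen sulfotransferase, lies on chromosome 8, 66811536 to 66838181 (gene ID 397052). Its counts were 7, 2 and 3 in L − N, 5, 1 and 5 in L + N, 8, 19 and 1 in H − N and 4, 33 and 3 in H + N. H − N replicate 2 and H + N replicate 2 held most of the reads, and the other libraries had 8 or fewer. All groups overlapped, and 5 of the 12 libraries had 3 reads or fewer.

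STS, the steroid sulfatase, has a copy on chromosome X, 3926027 to 4076900 (gene ID 448816) and a copy on chromosome Y, 2747102 to 2828322 (gene ID 448816). Sows carry no Y chromosome, and the source of the reads on the Y copy was not tested, so the values of each row alone are uncertain. Whether reads that match both copies were counted was not tested either, so their sum may be too low. The X copy stood in CPM at 0.446, 2.13 and 2.75 in L − N, 0.0971, 0.699 and 0.392 in L + N, 1.71, 0.139 and 0 in H − N and 0.923, 0.272 and 1.35 in H + N. The Y copy stood at 0.700, 0.188 and 1.61 in L − N, 0.388, 0.233 and 0.654 in L + N, 0.984, 1.46 and 1.52 in H − N and 0.330, 0.489 and 0.429 in H + N. The sum of both was 1.15, 2.32 and 4.37 in L − N, 0.485, 0.932 and 1.05 in L + N, 2.69, 1.60 and 1.52 in H − N and 1.25, 0.761 and 1.78 in H + N CPM. Summed, L − N replicates 2 and 3 and H − N replicate 1 were highest and L + N replicate 1 lowest, and the libraries of L − N were all above those of L + N, while all other pairs of groups but H − N and L + N overlapped. Tested on the sum, a choice made after seeing the data, the log2 fold change was -1.67 ± 0.54 (SE) for L + N against L − N and -1.15 ± 0.38 with against without NCG, and neither passed in edgeR (adjusted p = 0.0754 and 0.0952). On the Y copy alone, the latter was -1.30 ± 0.46 (adjusted p = 0.114 in edgeR), and without L − N replicate 2 it was -1.54 and was called (adjusted p = 0.0379). Without L − N replicate 3 it was -0.86 (adjusted p = 0.292 in edgeR). The ratio of SULT1E1 to STS is not given because both rest on so few reads.

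Of the other genes of sulfation, desulfation and glucuronidation, 11 were in the table and 10 were tested. UGT1A6, which attaches glucuronic acid to phenolic compounds, stood in CPM at 23.7, 26.2 and 19.3 in L − N, 30.9, 46.9 and 44.9 in L + N, 63.2, 39.7 and 150.4 in H − N and 46.1, 33.6 and 71.5 in H + N. All 9 libraries of the other diets were above those of L − N, and H − N replicate 3, the library highest in HSD11B1, was the highest. How many of all genes separated L − N from all others was not counted. UGT1A6 rose by 1.87 on the log2 scale in H − N against L − N (SE 0.43, adjusted p = 0.0362 in edgeR). This was the only call by edgeR in this list, 1 of 10 where it called 2.91% of all genes. DESeq2 called UGT1A6 there, for high against low fiber and among the 4 groups, and SUMF1 among the 4 groups. Of all genes, DESeq2 called 5.95%, 1.89% and 21.9% in these comparisons. The edgeR call was lost without any 1 of 7 libraries (edgeR adjusted p from 0.0519 to 0.147), namely L − N replicates 2 and 3, L + N replicates 2 and 3, H − N replicates 1 and 3 and H + N replicate 1, and without H − N replicate 3 the log2 fold change was 1.16. The UGT1A6 call was also lost with only the libraries of the groups compared and with the replicate number as a block (adjusted p = 0.123 and 0.0575 in edgeR). SUMF1, which activates sulfatases such as STS, was the most abundant of the list at a mean of 78.3 FPKM. Of the genes that hydroxylate estrogens, 2 were tested. Neither edgeR nor DESeq2 called any, 0 of 2 had an unadjusted p under 0.05 in a comparison, and CYP3A29, a cytochrome P450, was the most abundant at 8.93 FPKM.

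**Figure D4:**
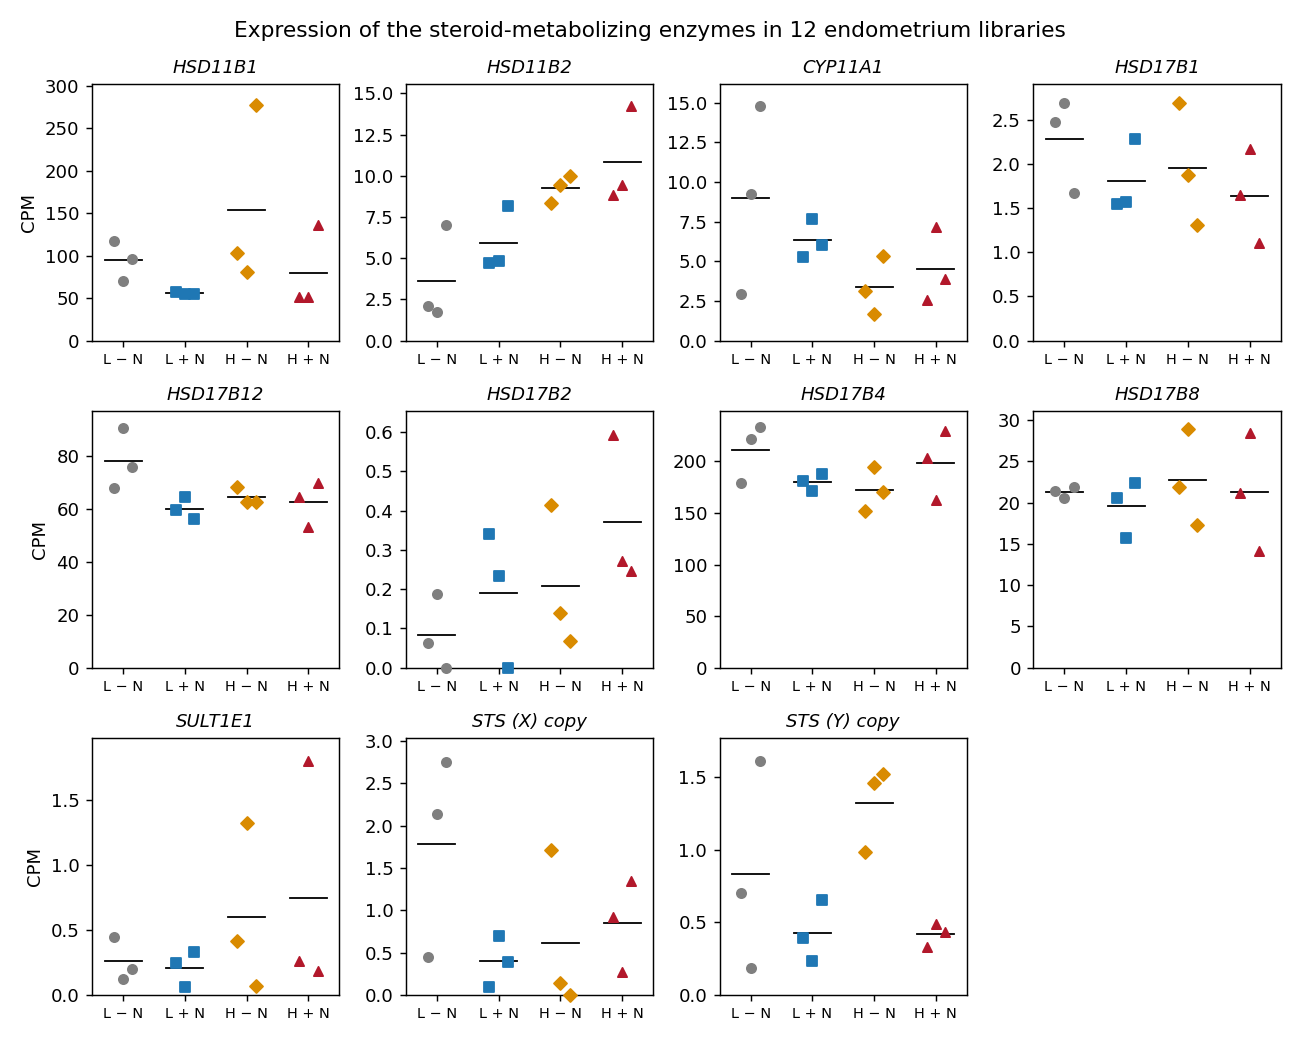
Level of each enzyme gene in CPM in the 12 libraries, by diet, with the group mean as a bar and an axis from 0 of its own for each gene. HSD11B2 is at 8.34 CPM or more in all HF libraries and reaches 8.17 CPM in the highest LF library, L + N replicate 3. HSD11B1 reaches 277 CPM in H − N replicate 3.

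Counted together, none of the 9 rows was called by edgeR in any of the comparisons. For H − N against L − N, 0 of 9 were called where 2.91% of all genes tested were, 2 of 9 (HSD11B2 and CYP11A1) had an unadjusted p under 0.05 against 24.4% of all genes, and 1 of 9 (HSD11B2) had groups that did not overlap in CPM, against 25.4%. For L + N against L − N, 0 of 9 were called against 3.99%, 1 of 9 (HSD17B12) had an unadjusted p under 0.05 against 27.8%, and 2 of 9 (HSD11B1 and HSD17B12) did not overlap against 35.3%. For H + N against L − N, 0 of 9 were called against 3.58%, 2 of 9 (HSD11B2 and HSD17B12) had an unadjusted p under 0.05 against 27.5%, and 1 of 9 (HSD11B2) did not overlap against 28.0%. By these edgeR counts, the enzymes did not pass more often than genes in general in these comparisons with L − N, which share the L − N libraries. This difference was not tested. With DESeq2, 1 of 9 (HSD11B2) was called for H − N and for H + N, against 5.95% and 6.44% of all genes. In edgeR with the replicate number as a block, 1 of 9 (HSD11B2) was called for both as well. Of the 15351 genes, 254 and 397 were called there.

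Comparisons without L − N gave no call by edgeR, and DESeq2 called 25 genes for H + N against H − N and 2 for H + N against L + N, none of them an enzyme described here. For H + N against H − N, 0 of 9 rows and 0% of all genes were called, 1 of 9 (the Y copy of STS) had an unadjusted p under 0.05 against 8.67%, and the same row alone did not overlap, against 13.0%. For H + N against L + N, 0 of 9 rows and 0% of all genes were called, 0 of 9 had an unadjusted p under 0.05 against 4.68%, and 1 of 9 (HSD11B2) did not overlap against 11.0%. HSD11B2 was higher there by 0.88 ± 0.46 (SE) on the log2 scale, with adjusted p = 0.910 in edgeR.

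Over both NCG levels, high against low fiber gave 0 of 9 calls against 0.0261% of all genes, and 2 of 9 (HSD11B2 and CYP11A1) with an unadjusted p under 0.05 against 19.5%. With against without NCG gave 0 of 9 calls against 1.80%, and 3 of 9 (HSD11B1, HSD17B12 and the Y copy of STS) with an unadjusted p under 0.05 against 23.6%. The interaction, the NCG effect on the HF diet minus that on the LF diet, gave 0 of 9 calls against 0%, and 0 of 9 with an unadjusted p under 0.05 against 12.8%. Among the 4 groups at once, 0 of 9 were called at an adjusted p under 0.05 against 6.96%, and 1 of 9 (HSD11B2) had an unadjusted p under 0.05 against 27.3%. DESeq2 called 1 of 9, HSD11B2, for H − N against L − N, where it called 5.95% of all genes, for H + N against L − N (6.44% of all genes), for high against low fiber (1.89%) and among the 4 groups (21.9%). It called 0 of 9 for L + N against L − N (5.75% of all genes), H + N against H − N (0.163%), H + N against L + N (0.0130%), with against without NCG (2.31%) and the interaction (1.20%). DESeq2 gave no adjusted p for the Y copy of STS in H + N against H − N, where its unadjusted p was 0.0261, and for both copies of STS in the interaction, so these could not be called there.

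**Figure D5:**
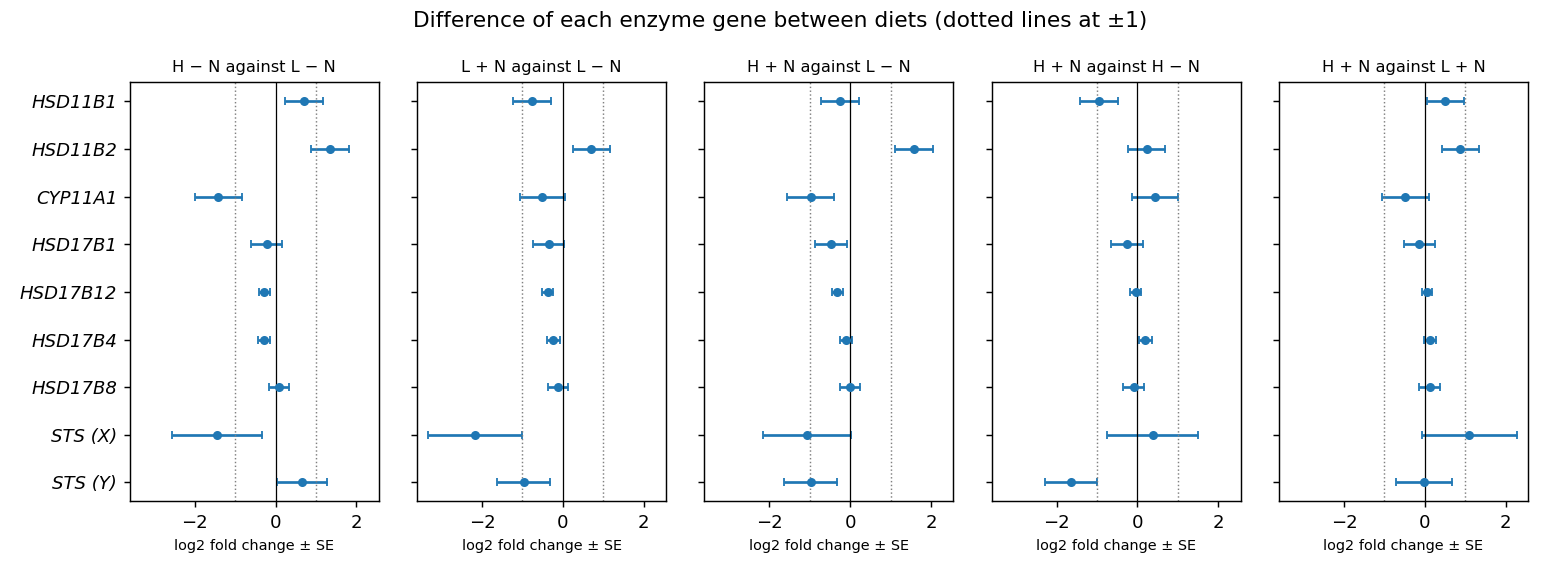
Log2 fold change ± SE of the 9 tested rows in the 5 comparisons of 2 groups, from edgeR, with dotted lines at the fold limit of the calls. HSD11B2 lies at 1.36 for H − N and 1.59 for H + N against L − N, and no row was called.

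The receptors for these hormones were given by 6 genes, all tested. ESR1, the main estrogen receptor of the uterus and the most abundant at a mean of 46.8 FPKM, stood in CPM at 523, 417 and 409.8 in L − N, 770.0, 855 and 1003 in L + N, 939, 926 and 567 in H − N and 1059.8, 866 and 1281 in H + N. PGR, the progesterone receptor, stood at 26.4, 34.5 and 37.9 in L − N, 40.4, 34.2 and 57.9 in L + N, 54.9, 48.7 and 49.6 in H − N and 59.3, 43.6 and 119 in H + N. For ESR1 the L − N libraries were below all others, and for PGR they overlapped those of L + N only. The share of all genes that separated L − N from all others was not counted. Against L − N, ESR1 rose by 1.25 on the log2 scale in H + N (SE 0.22, adjusted p = 0.0161 in edgeR) and PGR by 1.17 in H + N (SE 0.32, adjusted p = 0.04997 in edgeR). Of the 6 genes, 0 were thus called in H − N, 0 in L + N and 2 in H + N, both higher, against 2.91%, 3.99% and 3.58% of all genes. The median log2 fold change was 0.27, 0.07 and 0.28 in that order, against 0.03, -0.02 and 0.02 over all genes tested. In H − N and L + N, ESR1 was also higher at an adjusted p under 0.05, by 0.85 ± 0.22 (SE) on the log2 scale in H − N and 0.96 ± 0.22 in L + N (adjusted p = 0.0473 and 0.0217 in edgeR), below the fold limit. It was the only gene of the 6 with an unadjusted p under 0.05 in these comparisons, and DESeq2 called none in them. At an adjusted p under 0.05 alone, 1 of 6 was thus higher in H − N, 1 in L + N and 2 in H + N, against 5.27%, 9.60% and 7.97% of all genes. With against without NCG, ESR1 was higher by 0.68 ± 0.15 (SE) with adjusted p = 0.0233 in edgeR, 1 of 6 against 7.27% of all genes, and not called. For high against low fiber, 2 of 6 (ESR1 and PGR) had an unadjusted p under 0.05, against 19.5%. Among the 4 groups edgeR called 1 of 6, ESR1, against 6.96% of all genes, and DESeq2 also PGR. The ESR1 call was lost without L − N replicate 3 or H + N replicate 1 (edgeR adjusted p from 0.0592 to 0.0801), and the PGR call without any library other than H + N replicate 2 (edgeR adjusted p from 0.0555 to 0.133, log2 fold change 0.64 without H + N replicate 3). The PGR call was also lost with RLE factors, without the filter and with only the libraries of the groups compared (adjusted p = 0.0511, 0.0523 and 0.131 in edgeR), and the ESR1 call with the last of these (adjusted p = 0.0512).

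Cell type markers were called beside these genes. In edgeR, which called 2.91%, 3.99% and 3.58% of all genes in H − N, L + N and H + N, 5 of the 10 leukocyte markers were lower in H − N (C1QA, C1QB, CD68, CSF1R and CD163), 1 in L + N (CD163) and 2 in H + N (CSF1R and CD163) against L − N. The 5 genes are macrophage genes, and in H − N 4 of the 10 had a higher level, S100A9 by 3.36 ± 1.48 (SE) on the log2 scale (unadjusted p = 0.0441, adjusted p = 0.191 in edgeR), S100A8 by 2.81 ± 1.44, CD79A by 0.20 ± 0.71 and CD3E by 0.07 ± 0.40, none called. Of the 8 stromal markers, VIM was lower in H − N and H + N, and HOXA10 higher in L + N and H + N and with against without NCG. Of the 6 smooth muscle markers, ACTA2 and TAGLN were lower in L + N, and of the 6 endothelial markers PECAM1. DESeq2 called 5 of 6 smooth muscle markers in L + N, ACTA2 and TAGLN in H − N and in H + N, and CLDN5 beside PECAM1 in L + N. It also added CSF1R in L + N, C1QA, COL1A1 and PEG10 in H + N and ELF5 in H − N, where it called 5.75%, 5.95% and 6.44% of all genes in L + N, H − N and H + N. For high against low fiber DESeq2 called CD163 and ELF5, for H + N against H − N S100A9, and for the interaction C1QA, C1QB, CD163, S100A8, S100A9, VIM and TAGLN. Of all genes, it called 1.89%, 0.163% and 1.20% in these comparisons. Of the 9 epithelial markers, edgeR and DESeq2 called none between diets, and edgeR called CDH1 among the 4 groups. At most 4 of 9 had an unadjusted p under 0.05 in edgeR. This was so for H − N against L − N, H + N against H − N and the interaction. Of all genes, 24.4%, 8.67% and 12.8% had one there. CDH1 was higher in H − N against L − N by 0.83 ± 0.17 (SE) on the log2 scale at an adjusted p of 0.0279 in edgeR, below the fold limit. Of the 5 trophoblast markers tested ELF5, a factor that epithelia also express, was higher in H + N. Of the 17 calls by edgeR between diets, 16 were lost without at least 1 library, the exception being HOXA10 in L + N, and none changed its direction. Their part in the values of the enzymes was not tested.

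HSD11B2, HSD11B1 and the Y copy of STS were the members with the smallest adjusted p among the 4 groups. The genes most like them were found by Pearson correlation of log2(CPM + 0.5) over the 12 libraries, as a description. Only genes with a mean of at least 1 CPM were compared, 13589 for HSD11B2 and HSD11B1 and 13590 for the Y copy of STS. The points share the diets and the differences between libraries. For HSD11B2 the most similar genes were CCDC62 (r = 0.896), SFSWAP (0.870) and GTF2H3 (0.860). For HSD11B1 they were SULT2A1 (r = 0.949), a steroid sulfotransferase, MCFD2 (0.931) and CYP51 (0.930), an enzyme of cholesterol synthesis. SULT2A1 stood in CPM at 4.33, 0.502 and 0.806 in L − N, 0.0485, 0.873 and 0.262 in L + N, 2.02, 1.87 and 18.002 in H − N and 0.132, 0.272 and 5.95 in H + N, while CYP51 ran from 24.9 CPM in H + N replicate 2 to 118 CPM in H − N replicate 3. H − N replicate 3 was the highest library for each of the 3 genes SULT2A1, CYP51 and HSD11B1. For the Y copy of STS, whose reads are few, they were FAM174A (r = 0.874), FANCF (0.845) and SLC25A14 (0.842).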

How the data were processed

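The libraries were poly(A) enriched and strand-specific. The authors deposited read counts per gene and FPKM values, which the authors scaled by gene length and counted reads. The submitters' processing notes name fastp 0.22.0, HISAT2 2.1.0, HTSeq 0.9.1 and Sscrofa11.1, and the strand used in counting is not given. Counts were tested in edgeR 4.0.16 (R 4.3.3) with filterByExpr, TMM factors, 1 mean per group over all 12 libraries, glmQLFTest and Benjamini-Hochberg adjustment over 15351 genes. CPM used TMM effective library sizes. Among the 4 groups, an adjusted p under 0.05 alone was a call. The SE is the absolute log2 fold change divided by the square root of F. The edgeR and DESeq2 steps were tested on simulated data. Alternatives were RLE factors, DESeq2 1.42.0, no filter, only the libraries of the groups compared, each library left out, the replicate number as a block and, chosen after seeing the data, the summed STS copies.

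Named were all members, the called and most abundant genes of 8 pathway and 6 marker lists, and the 3 genes most correlated with each of 3 members. FKBP5, H6PD, NR3C1, NR3C2, ESR2, GPER1, DDIT4, PER1, SGK1, DUSP1, CRISPLD2, ERRFI1, CD79A, CD3E, PTPRC, STAR, STARD3, FDX1, FDXR, CYP17A1, HSD3B1, CYP21A2, CYP19A3 and the genes called by DESeq2 or among the 4 groups alone were named after their values were seen. The members and lists were chosen with earlier results of these data known. Of the listed genes, 16 had no row of that name, and 2 were left out for a reason unrelated to their values.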

Additional observations from a re-analysis of the deposited data

How the results depend on the processing

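The count of enzymes called was 0 in every comparison and stayed 0 with RLE factors, without the filter, with only the libraries of the groups compared and with the STS copies summed. With DESeq2 it was 1 for H − N against L − N, H + N against L − N, high against low fiber and among the 4 groups, each time HSD11B2. DESeq2 also called more genes in all, 913, 988 and 290 against 446, 549 and 4 in the first 3 of these and 3365 against 1068 among the 4 groups. Leaving out each library in turn gave 0 to 1 enzymes for H − N against L − N (CYP11A1 without L − N replicate 1) and 0 to 1 with against without NCG (STS without L − N replicate 2, HSD11B1 without H + N replicate 3), and 0 in the other comparisons.

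The replicate number as a block gave 1 enzyme, HSD11B2, for H − N against L − N (adjusted p = 0.0496 in edgeR, 0.0389 to 0.259 over all alternatives) and 1, again HSD11B2, for H + N against L − N (adjusted p = 0.0324, 0.0103 to 0.158 over all), and changed no other count of enzymes called. With the block, 254 and 397 of all 15351 genes were called in these comparisons, where 446 and 549 were reported. The block ended both HSD17B14 calls (adjusted p = 0.0552 for H − N and 0.0902 for L + N against L − N) and the UGT1A6 call (0.0575), the GADD45A call with against without NCG (log2 fold change -0.97), and the calls of CD68 for H − N, ACTA2 for L + N and ELF5 for H + N against L − N (adjusted p = 0.0803, 0.0690 and 0.0587). Of the 30 calls of listed genes between diets, 7 were lost with the block, 1 with RLE factors, 3 without the filter and 0 with DESeq2, and 22 of 28 with only the libraries of the groups compared. The libraries share only a number: 3 of 18 pairs with the same number had residuals correlated above 0.1, and 2 of 12 libraries correlated best with their own number. The cause of these changes was not tested.

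The number of all genes called depended on single libraries. Over the libraries left out, it ran from 0 to 1120 for H − N, from 143 to 911 for L + N and from 1 to 948 for H + N against L − N, from 0 to 331 for fiber, from 157 to 340 for NCG, from 0 to 346 for the interaction and from 4 to 1732 among the 4 groups. Of the enzymes with an unadjusted p under 0.05 and the listed genes called between diets, none changed the sign of its log2 fold change under an alternative. With only the libraries of the groups compared, 3 genes in all were called for H − N, 537 for L + N and 87 for H + N against L − N, where 446, 613 and 549 were reported. Low counts limit HSD17B2, SULT1E1 and STS, with 44, 91 and 178 plus 143 reads over all libraries, and the first 2 of these were not tested in the fit as reported. For STS, reads that match both copies may be missing from these counts, and this was not tested.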
